A study of Arabidopsis thaliana with 24 samples.

Results

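RNA levels were compared between WT seedlings of Arabidopsis and mutants that lacked or carried altered subunits of chromatin remodelling complexes. Of 33681 genes in the table, 168 lay above WT in every library of every mutant. They were selected on the deposited normalized counts: 21596 genes had 10 or more in at least 3 of the 24 libraries, and in 168 of these, 0.778%, the lowest of 21 mutant libraries exceeded the highest of 3 WT libraries. Because every mutant library and every WT library entered this choice, levels against WT are given as a description with no test. In the opposite direction, 232 genes, 1.07%, had all 21 mutant libraries below all 3 WT libraries.

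RNA-seq was carried out on whole 14-day-old seedlings of the CoL-0 background, grown in short days, with 3 libraries for each of 8 genotypes. The single mutants were bcl7a, bcl7b, brm-3 and brm-1, and the multiple mutants were bcl7a bcl7b, bcl7a bcl7b brm-3 and bcl7a bcl7b brm-1. All mutants were insertion lines, with brm-3 a weak allele and brm-1 a null allele of BRM, and each BCL7 gene was represented by 1 allele. All genotypes shared the growth conditions, and no treatment is named for any of them.

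SWI/SNF complexes use the energy of ATP to slide or evict nucleosomes, and so alter the access of regulatory proteins to DNA. BRM is one of the ATPases that can power such a complex in plants. BCL7A and BCL7B are closely related accessory subunits of the BRM complex. The study also found them with other ATPases of this family and reports roles for them outside the BRM complex. BRM is known for its roles in leaf and flower development, in the response to abscisic acid and in opposing Polycomb silencing, and its loss raises some genes and lowers others.

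The 9 libraries of WT, bcl7a and bcl7b differed from the other 15 in more than genotype. Their normalized counts summed to 29.9 M to 40.9 M (M for mega) with 26.8 to 33.6% in the 10 highest genes, whereas the other 15 summed to 16.6 M to 22.1 M with 7.87 to 13.7%. The library of WT replicate 1 listed 16191 genes at 0, against 13250 and 13368 in the other WT libraries. Replicates 1 and 3 of bcl7a bcl7b differed far less than any other pair of one genotype (SD of the log2 ratio 0.102 against 0.558 to 1.8 in 23 other pairs) and were counted as 1 sample, so that this genotype had n = 2. BCL7B was listed at 0 in all libraries of bcl7b mutants except bcl7a bcl7b brm-3 replicate 3 (23.97), BCL7A was at most 12.4 in bcl7a mutants but also at 0 in WT replicate 1, and BRM was 31.2 to 44.8 in brm-1 against 111 to 349.5 in WT. In brm-3, BRM was 134.8 to 172.7, which overlapped WT.

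Markers of other tissues were read beside these genes, since a seedling holds several organs. The summed level of 5 genes of photosynthetic shoots was 712666 to 836821 in WT and lower in every mutant library, down to 153304 to 194904 in bcl7a bcl7b brm-3. The 4 root markers summed to 30852 to 38154 in WT, 55750 to 56894 in bcl7a bcl7b and 65623 to 71748 in bcl7a bcl7b brm-1. Only PYK10 rose, from 22432 to 25707 in WT to 48227 to 49888 and 59428 to 62606 in these mutants. PHT1;1 was lower in both, at 1037 to 2046 and 763.5 to 1488 against 2286 to 3348 in WT. TIP2;3 was lower in bcl7a bcl7b brm-1 (270.7 to 634.5, against 1562 to 2090 in WT), and AHA2 overlapped WT in both. The 3 seed storage and oil body genes reached 471.5 to 9411 in bcl7a bcl7b brm-1 and at most 123.2 elsewhere. In whole seedlings, a change in the share of a cell type and a change in the RNA of each cell cannot be told apart, and the part of these tissues in the levels of the 168 genes was not tested.

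Most members cleared WT by a small margin. Among the 153 with a WT library above 0, the ratio of the lowest mutant library to the highest WT library had a median of 1.12. It was below 1.1 in 68 genes, from 1.1 to 1.5 in 62, from 1.5 to 2 in 8, from 2 to 4 in 14 and above 4 in 1. The remaining 15 were listed at 0 in all 3 WT libraries. Just inside the rule, COL9 had a lowest mutant library of 51.29 against 51.2 in WT, NAGS1 had 77.14 against 76.94 and WRKY6 had 72.36 against 72.13. Just outside it, DPA had 32.61 against 32.62, AT5G62820 had 48.55 against 48.56 and AT5G48360 had 116.1 against 116.3.

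**Figure D1:**
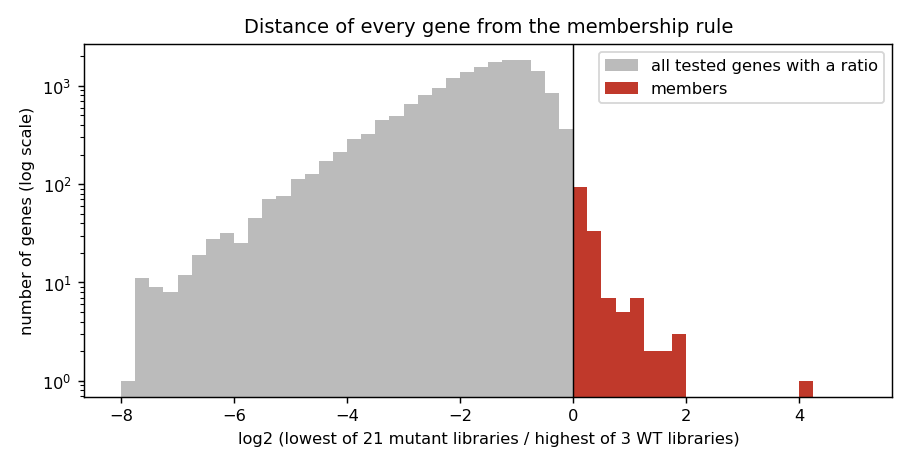
The histogram counts genes (y axis, log scale) by the log2 ratio of the lowest of 21 mutant libraries to the highest of 3 WT libraries (x axis), for all tested genes with both values above 0 (grey) and the members (red). The members form the tail to the right of 0, and 1 gene, AT1G75945 with a ratio of 17.1, stands apart from the rest.

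The WT libraries that set the upper bound were unequal. The highest WT value came from replicate 2 in 88 members, from replicate 3 in 48 and from replicate 1 in 17. Of the 168 members, 62 were listed at 0 in WT replicate 1, 20 in replicate 2 and 22 in replicate 3, and 36 were at 0 in replicate 1 alone. The rule would have taken 345 genes without WT replicate 1, 613 without replicate 2 and 455 without replicate 3. The lower bound came mainly from the BCL7 singles, since the lowest mutant library belonged to bcl7a in 75 members and to bcl7b in 57, and to each of the other 5 genotypes in 5 to 11. Without bcl7a, 396 genes met the rule, and without bcl7b 360 did.

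In each mutant by itself, the share of all tested genes with 3 libraries above all 3 of WT was 5.33% in bcl7a, 8.14% in bcl7b, 27.5% in brm-3, 32.6% in brm-1, 22.6% in bcl7a bcl7b, 30.3% in bcl7a bcl7b brm-3 and 29.9% in bcl7a bcl7b brm-1. The bcl7a and bcl7b singles therefore passed the fewest genes.

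The members' mean over 24 libraries had a median of 150 (quartiles 70.2 and 346), near the 159 of all tested genes (quartiles 46.8 and 477). The rule required 21 of these libraries to lie above WT, so this mean is not the members' level in WT. That level was not set beside the one of all genes. Of the 168, 164 were annotated as protein coding, 2 as pseudogenes, 1 as a transcribed pseudogene and 1, AT3G02832, as a non-coding RNA. They lay on all 5 nuclear chromosomes, at 0.514% of the tested genes of chromosome 2 and 0.775 to 0.881% of those of the other 4, and none was encoded in an organelle. Only 3 pairs were neighbours in gene order, namely TPR3 with AT1G04200, AT1G27050 with AT1G27060 and CLS with AT4G04880. In 42 of 168 members, 25%, the gene model overlapped another one, against 31.6% of all tested genes with a model. Whether quantification used strand is not given in the sources used here, so reads of these pairs may not be told apart.

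The median difference from WT was smaller in the BCL7 singles than in all other mutants, with no steady rise among the others. On the log2(value + 1) scale, the median over 153 members was 1.15 in bcl7a (SD over the 9 pairs of libraries 0.346) and 1.33 in bcl7b (0.367), against 0.02 over all tested genes in both. It was 2.01 in brm-3 (0.381) and 2.13 in brm-1 (0.345), with all genes at 0.23 and 0.29. It was 1.88 in bcl7a bcl7b (0.408), 2.37 in bcl7a bcl7b brm-3 (0.323) and 2.12 in bcl7a bcl7b brm-1 (0.325), with all genes at 0.16, 0.24 and 0.23. The medians of the brm singles and the multiple mutants ran from 1.88 to 2.37. The 9 pairs of every mutant shared the same 3 WT libraries, so these SDs do not measure differences between mutants. Without WT replicate 1 the medians fell to between 0.90 in bcl7a and 2.03 in bcl7a bcl7b brm-3.

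**Figure D2:**
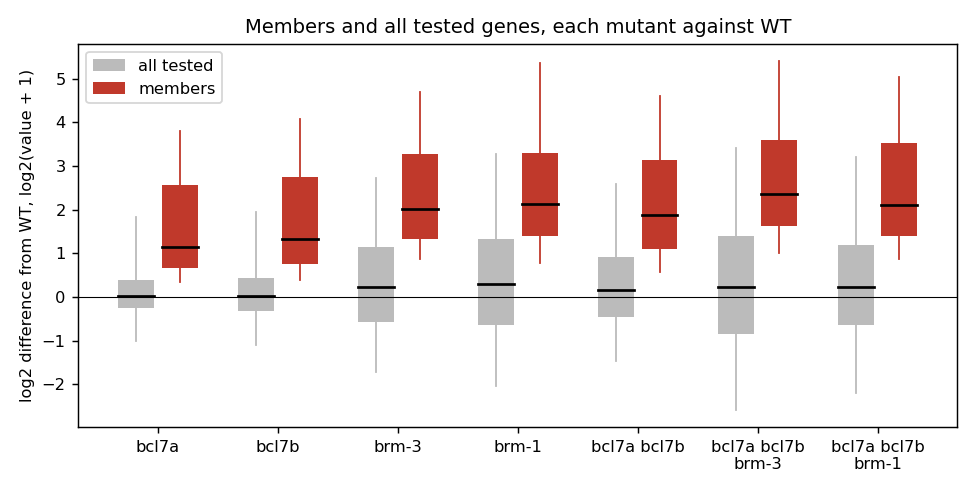
Each mutant (x axis) is shown with the log2 difference from WT (y axis) over 153 members (red) and all 20809 tested genes with a WT library above 0 (grey). Boxes span the quartiles, black lines are medians and thin lines run from the 5th to the 95th percentile. The members' medians are 1.15 in bcl7a, 1.33 in bcl7b and 1.88 to 2.37 in the other mutants. The positive side of all red boxes follows from the rule.

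The member that stood farthest from WT was AT1G75945, which encodes an uncharacterized protein. Its WT values were 0, 19.8 and 31.6, and it was at 540.1 in the lowest, 1032 in the median and 1740 in the highest mutant library. The difference from WT was 6.40 to 7.35 on the log2 scale in all 7 mutants, so that the single mutants reached levels like those of the multiple mutants. Among neighbouring genes, SKP1, a core subunit of ubiquitin ligases, ranged from 14049 to 27672 over all 24 libraries, with WT (21354 to 27672) in its upper part. On its other side, AT1G75900 was 14.3 to 66.9 in WT, 9.75 to 135.7 in the BCL7 singles and 144.3 to 1226 in the other mutants. Neither neighbour showed the step from WT to the BCL7 singles that AT1G75945 showed.

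The next ratios were 3.67 or lower and belonged to genes of low level. SUV2, the plant counterpart of a partner of the ATR kinase in DNA damage signalling, had WT values of 6.20, 0 and 4.07 and was at 22.8, 72.6 and 182 in the lowest, median and highest mutant library. AT1G56350, a peptide chain release factor, was at 0, 4.17 and 1.48 in WT and at 14.7, 33.0 and 88.1 in the mutants. AT3G05170, of the phosphoglycerate mutase family, was at 0, 4.18 and 2.95 in WT and at 14.5, 51.8 and 127 in the mutants. In these 3 genes a WT library was at 0, and no WT library exceeded 6.20. The other 8 of the 12 highest ratios, from 3.14 down to 2.14, were those of DREB2A, AT1G09470, AT5G16980, AT1G56080, AT1G72920, AT3G61360, AT5G59480 and AT1G71940. Of these, only AT5G59480, a hydrolase of the haloacid dehalogenase family, and AT1G71940, a SNARE-associated Golgi protein, had all 3 WT libraries above 15.

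The 15 members listed at 0 throughout WT had a median mutant mean of 28.3, and their lowest mutant library was 0.777 to 5.78, so no fold is given for them. The highest mutant mean, 777.8, was that of KIN1, a gene best known for its induction by cold and abscisic acid. KIN1 was 14.3 ± 8.4 (SD, n = 3) in bcl7a, 14.8 ± 9.7 in bcl7b, 115 ± 39 in brm-3, 580 ± 240.3 in brm-1, 275.7, 12.2 and 266.4 in the libraries of bcl7a bcl7b, 2330 ± 1586 in bcl7a bcl7b brm-3 and 2206 ± 145 in bcl7a bcl7b brm-1. It was the most uneven member across mutants, with a ratio of 163 between its highest and lowest genotype mean, and because KIN1 has a closely similar neighbouring copy its reads may be shared with that gene. The other 5 genes of this kind with the highest means were the RING protein gene AT1G24580, AT4G08555 of unknown function, ERO1, an oxidase that makes disulfide bonds in the endoplasmic reticulum, the small GTPase gene RAC2, and FRB1, a putative O-fucosyltransferase.

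The 8 members with the highest mean over the mutants had ratios of the lowest mutant to the highest WT library of 1.01 to 1.29. GAPA-2, a subunit of the chloroplast glyceraldehyde 3-phosphate dehydrogenase of the Calvin cycle, was 11007, 13476 and 10660 in WT and 13651, 26418 and 43158 in the lowest, median and highest mutant library. HSP81-3, a cytosolic HSP90 chaperone with near-identical copies, was 1396, 1315 and 1408 in WT and 1444, 1816 and 6686 in the mutants. AT3G19030 came next in level, with a ratio of 1.23. AT5G38520, an alpha/beta hydrolase, was 816.3, 833.2 and 847.8 in WT and 890.4, 2167 and 3235 in the mutants. For GAPA-2, HSP81-3 and AT5G38520 this ratio was 1.01 to 1.05. The others of the 8 were the B-box gene BBX15, the histone chaperone gene NRP1, the chloroplast HSP90 gene CR88 and AT5G02710.

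**Figure D3:**
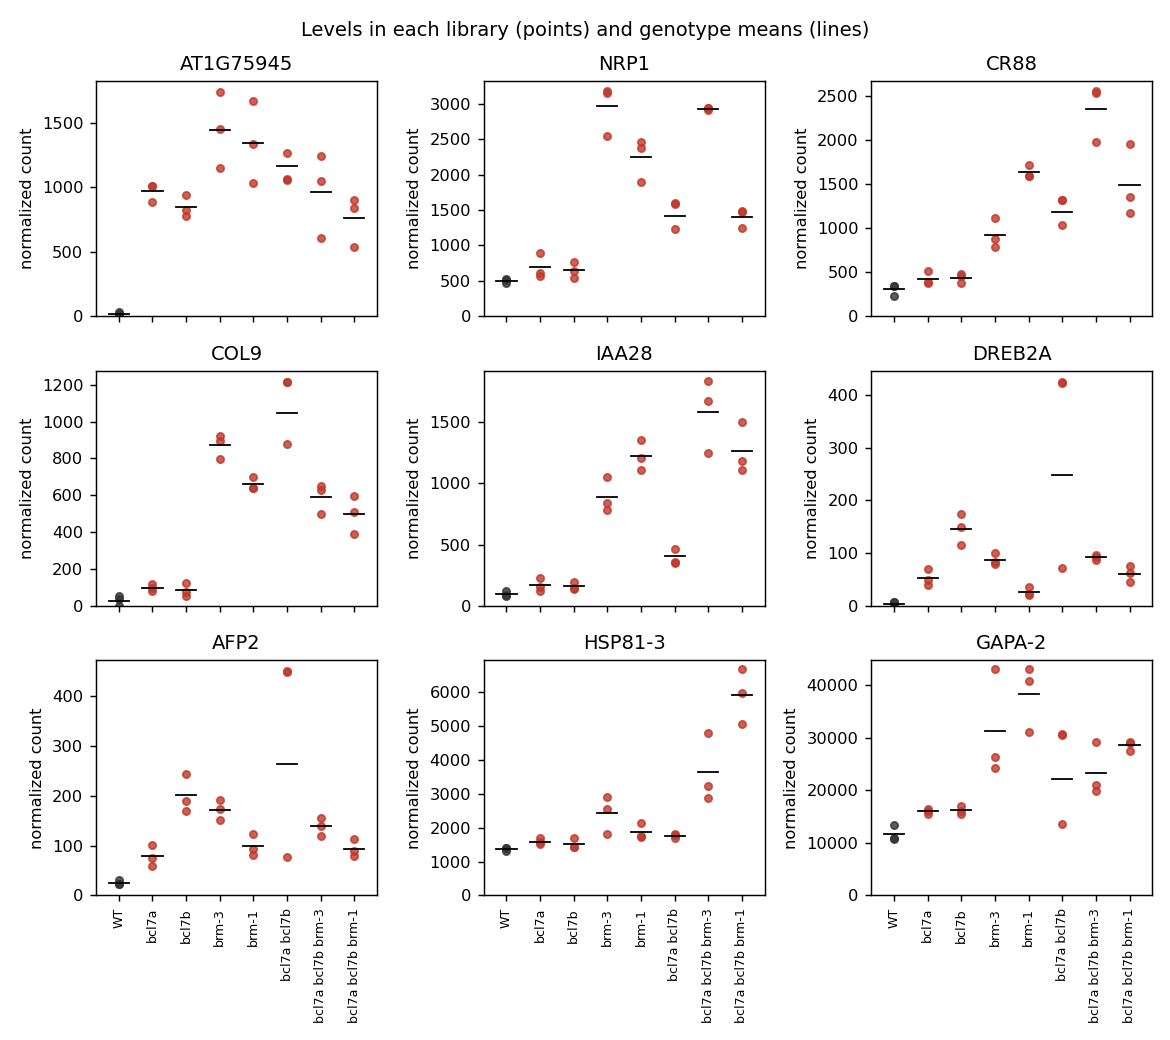
Normalized counts (y axis, starting at 0) of 9 members in each of 24 libraries (points; WT black, mutants red), with genotype means as lines, where replicates 1 and 3 of bcl7a bcl7b count once. AT1G75945 is high in all mutants. NRP1, CR88, COL9 and IAA28 are lower in the BCL7 singles than in the other mutants. COL9 is 2.97 and 2.69 above WT on the log2 scale in bcl7a and bcl7b, differences enlarged by the 0 in WT replicate 1. Its means are 28.8 in WT, 96.9 in bcl7a and 83.7 in bcl7b. The lowest mutant library of COL9 is 51.29, beside 51.2 in WT replicate 2. DREB2A and AFP2 are split between the libraries of bcl7a bcl7b.

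By function, the members were mixed. Words in the symbols and product names placed 11 members among transcription factors and DNA-binding proteins (6.55%, against 5.11% of all tested genes), 9 among kinases (5.36 against 5.25%), 5 among heat shock proteins and chaperones (2.98 against 1.08%) and 5 in the ubiquitin pathway (2.98 against 3.46%). No member was matched to photosynthesis or chlorophyll (0.38% of all tested genes), to ribosomes or translation (2.17%) or to cytochrome P450 enzymes (0.708%). Such word matches miss genes, GAPA-2 and AT1G56350 among them, and no test was made. Of 64 tested genes in 8 lists of clock, hormone, cold, heat, starvation and light harvesting genes, 1, KIN1 of the cold list, was a member.

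A further 44 members were grouped by known role after their values had been seen, so the groups are a reading aid only. In the group of 15 genes of stress and defence signalling, of which 14 had a WT value, the median log2 difference from WT was 1.5 in bcl7a and 2.49 in bcl7b, near the 1.57 to 1.84 of the brm singles and triple mutants and the 2.34 of bcl7a bcl7b. DREB2A, a transcription factor of drought and heat responses, was at 0, 6.75 and 6.34 in WT, 114.6 to 173.6 in bcl7b, 21.2 to 36.6 in brm-1 and 424.9, 71.3 and 422.1 in bcl7a bcl7b. AFP2, a repressor that binds the abscisic acid factor ABI5, was 23.5, 22.0 and 30.7 in WT, 169.9 to 244.4 in bcl7b, 80.3 to 123.0 in brm-1 and 450.6, 76.2 and 448.6 in bcl7a bcl7b. The transcription factor gene NAC102 was likewise 2314, 401.9 and 2275 in bcl7a bcl7b. In these 3 genes the level of the double mutant therefore depended on which of its libraries was read.

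RDUF1, a RING ubiquitin ligase of the abscisic acid response, was 90.6, 270.8 and 264.5 in WT, 595.5 to 908 in the BCL7 singles and 366.6 to 642.2 in the other mutants. AT3G10930, a gene of unknown function, was 0, 44.4 and 23.5 in WT, 190.9 to 752.9 in the BCL7 singles and 53.8 to 231.2 in the others. The highest genotype mean lay in bcl7b in 8 members, both of these among them, and in bcl7a in 3. The other regulators of this group included WRKY6, WRKY25, NAC062 and the zinc finger gene RHL41, all with lowest mutant libraries at 1 to 1.19 times the highest of WT.

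Genome maintenance and histone chaperones made up 8 members, with a median of 1.56 in bcl7a, 1.22 in bcl7b, 2.57 in brm-3, 2.2 in brm-1 and 1.70, 2.85 and 2.59 in the double and the 2 triples. NRP1 and NRP2 encode chaperones of histones H2A and H2B. NRP1 was 510.9, 528.9 and 472.8 in WT, 544.8 to 891.9 in the BCL7 singles, 2552 to 3189 in brm-3, 1893 to 2460 in brm-1, 1240 to 1596 in bcl7a bcl7b, 2912 to 2947 in bcl7a bcl7b brm-3 and 1252 to 1484 in bcl7a bcl7b brm-1. NRP2 was 139.1, 158.4 and 148.1 in WT, 178.2 to 241.4 in the BCL7 singles, 687.4 to 842.6 in brm-3, 576.8 to 816.6 in brm-1, 232.7 to 247.5 in bcl7a bcl7b, 1212 to 1402 in bcl7a bcl7b brm-3 and 214.2 to 328.3 in bcl7a bcl7b brm-1. Thus both paralogs were high in brm-3, brm-1 and bcl7a bcl7b brm-3, and in bcl7a bcl7b brm-1 no library of either reached those of the brm singles. The group also held RAD51C and RECA2 of recombination, PMS1 of mismatch repair, ORC3 of the replication origin complex and RNR2A, a subunit of the enzyme that makes deoxyribonucleotides.

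The 5 protein folding genes, of which 4 had a WT value, had medians of 0.55 and 0.69 in the BCL7 singles and 1.64 to 2.68 in the other mutants. CR88 was 339.0, 343.6 and 231.5 in WT, 373.2 to 517.7 in the BCL7 singles, 784.3 to 1110 in brm-3 and 1588 to 1719 in brm-1. It was 1040 to 1322 in bcl7a bcl7b, 1976 to 2552 in bcl7a bcl7b brm-3 and 1170 to 1949 in bcl7a bcl7b brm-1. ERO1, at 0 in WT, was 4.10 to 28.6 in the BCL7 singles and 53.2 to 165 in all other mutant libraries. For both genes the 15 libraries outside the BCL7 singles lay above the 6 within them.

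The 7 genes of starch, sugar and carbon metabolism had medians of 0.78 and 0.66 in the BCL7 singles and 1.93 to 3.68 in the others, highest in bcl7a bcl7b brm-1. AMY2, an alpha-amylase that degrades starch, was 38.1, 43.1 and 44.1 in WT, 54.6 to 81.4 in the BCL7 singles, 146.0 to 234.7 in the brm singles and bcl7a bcl7b and 324.3 to 594.4 in the triples. SWEET4, a sugar transporter, was at 0, 2.09 and 0 in WT, 2.80 to 30.6 in the BCL7 singles, 358.2 to 669 in brm-3 and 127.3 to 209.1 in brm-1. In bcl7a bcl7b brm-3 it was 40.7 to 98.5, lower than in every library of brm-3. This group also held APL2 and SBE2.1 of starch synthesis, the trehalose phosphate phosphatase gene TPPE, and RP1, the regulator of pyruvate orthophosphate dikinase.

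The 6 hormone and light signalling genes, of which 5 had a WT value, had their own largest medians in the brm mutants. These were 3.20 and 3.67 in the singles and 4.03 and 3.71 in the triples, against 2.08 in bcl7a bcl7b and 0.77 and 0.78 in the BCL7 singles. IAA28, a repressor of auxin response, was 118.3, 84.0 and 86.0 in WT, 122.9 to 224.0 in the BCL7 singles, 353.0 to 461.5 in bcl7a bcl7b, 782.7 to 1350 in the brm singles and 1107 to 1831 in the triples. COL9, a CONSTANS relative that delays flowering, was 0, 51.2 and 35.2 in WT, 51.3 to 122 in the BCL7 singles, 878 to 1216 in bcl7a bcl7b and 390.5 to 921.8 in the mutants of BRM. The libraries of bcl7a bcl7b thus lay between the BCL7 and the brm singles for IAA28, while for COL9 they overlapped or exceeded those of brm-3. LOG5, an enzyme of cytokinin activation, ARR15, a negative regulator of cytokinin signalling, BBX15 and the brassinosteroid-linked AIF1 completed the group. The 3 cell wall genes were XTH18, the pectin methylesterase gene PME31 and QUL1. Their median was 1.11 to 1.36 in the 4 single mutants, 2.22 in bcl7a bcl7b and 3.63 and 3.93 in the triples. The gene at the median changed between mutants. XTH18 was 1.11 to 1.36 in the singles and 3.63 and 4.42 in the triples. QUL1 was already 2.49 to 3.79 in the singles, against 4.13 and 3.93 in the triples. PME31 was 0.73 and 0.96 in the BCL7 singles and 0.72 and 1.61 in the triples. A step of the size seen in the medians was thus that of XTH18 only.

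Comparisons between mutants contain no WT library, but all their libraries entered the rule. A member had to stay above WT in each of them, and the lowest library was mostly one of a BCL7 single, so members had less room to be lower than these singles than other genes had. The shares of members called higher or lower are therefore a description, and nothing is read from them against all genes. The comparisons were tested with limma over all 21596 genes and 23 samples, and a call needed a log2 difference beyond 0.6 with p, adjusted by Benjamini and Hochberg over all genes, under 0.05. Whether differences across the 2 kinds of library sum came from genotype or from the library set cannot be told apart.

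The double BCL7 mutant was compared with its singles. Between bcl7a bcl7b and the mean of its singles, 32 of 168 were called higher (19%, against 8.67% of all tested genes) and 0 lower (8.56% of all genes), with a median of 0.49 beside 0.09 over all genes. At an unadjusted p under 0.05, 42 members passed in either direction, a count not made over all tested genes. The mean of the double mutant was above both singles in 123 members, between them in 24 and below both in 21. These positions were not counted over all tested genes. The rule's lowest library was mostly one of these singles, so nothing is read from them. The largest differences were those of COL9 (3.56, SE 0.811, adjusted p = 0.0034), ERO1 (2.90, SE 0.559, adjusted p = 0.000808), RAC2 (2.87, SE 0.552, adjusted p = 0.00078) and DFD, an enzyme of folate polyglutamylation (2.44, SE 0.285, adjusted p = 3.64e-06). With every library rescaled to the same total, which moved the median of all genes in this comparison by 0.79, 113 members (67.3%) and 41.1% of all genes were called higher. Without rescaling, 4 of the 38 members with a ratio of at least 1.5 or with WT at 0 were called higher, beside 32 of all 168 members and 8.67% of all tested genes.

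Between the BCL7 singles themselves no member was called in either direction (0.0185% higher and 0.0232% lower over all genes). The median difference of bcl7b from bcl7a was 0.10. At an unadjusted p under 0.05, 16 members passed, a count not made over all tested genes. Without bcl7a replicate 3, 1 member was called. Against the mean of these singles, the mean of brm-1 and brm-3 was higher in 76 members (45.2%, against 27% of all genes) and lower in 4 (2.38 against 19.4%), with a median of 0.72. SWEET4 (4.66, SE 0.485, adjusted p = 3.57e-08), KIN1 (4.21, SE 0.560, adjusted p = 1.25e-06), DFD (3.14, SE 0.202, adjusted p = 2.38e-11) and IAA28 (2.69, SE 0.160, adjusted p = 8.54e-12) were among the higher ones. The 4 that were lower were AT3G10930, AT4G37690, NAC062 and AT5G35935. In 87 members, a count not made over all tested genes, the means of all 5 other mutants were above both BCL7 singles. In 23 all 15 of their libraries were above all 6 of the singles, which was so for 5.02% of all tested genes, while none had all 15 below (6.23% of all genes).

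For multiple against single mutants, the mean of the 3 multiple mutants was called higher than that of the 4 singles in 35 members (20.8%, against 11.7% of all genes). It was called lower in 0 (10.6% of all genes), and the median was 0.37. At an unadjusted p under 0.05, 71 members passed in either direction, a count not made over all tested genes. KIN1 (3.47, SE 0.447, adjusted p = 2.46e-06), the cell wall xyloglucan enzyme gene XTH18 (2.42, SE 0.245, adjusted p = 8.24e-08), AT1G19380 (1.97, SE 0.230, adjusted p = 6.06e-07) and RAC2 (1.96, SE 0.312, adjusted p = 3.63e-05) had the largest differences. The highest genotype mean fell in a multiple mutant in most members, with 55 highest in bcl7a bcl7b brm-3, 45 in bcl7a bcl7b brm-1 and 20 in bcl7a bcl7b, against 21 in brm-3 and 16 in brm-1. These places were not counted over all tested genes, so nothing is read from them about the members. This contrast too mixes the 2 kinds of library sum, and 117 members (69.6%) and 34.5% of all genes were called higher after rescaling to the same total, which moved the median of all genes by 0.44. In the same comparison, the lists from which the members were almost absent were called higher in 6 of 7 and lower in 0 of 7 heat shock genes, in 7 and 0 of 9 jasmonate response genes, in 5 and 2 of 8 evening clock genes and in 3 and 1 of 10 salicylic acid defence genes. Of the light harvesting genes 9 of 9 were lower, of the morning clock genes 4 of 8, of the dark and sugar starvation genes 4 of 6, and none of these 3 lists had a gene called higher. Of 7 tested cold genes, 1 was higher and 2 were lower.

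Within the libraries of lower sum, each triple mutant was compared with its own brm single. In bcl7a bcl7b brm-3 minus brm-3, 26 members were higher (15.5%, against 9.08% of all genes) and 4 lower (2.38 against 12.1%), with a median of 0.35. The largest rises were those of CML38, a calmodulin-like protein (4.41, SE 0.745, adjusted p = 0.000154), AT4G08555 (4.38, SE 0.646, adjusted p = 3.59e-05), KIN1 (4.11, SE 0.792, adjusted p = 0.000587) and AT1G19380 (2.79, SE 0.407, adjusted p = 3.1e-05). The 4 that fell were SWEET4 (-3.11, SE 0.686, adjusted p = 0.00206), DFD (-1.32), AT4G10360 (-1.04) and BBX15 (-0.98). CML38 was 28.8, 63.2 and 77.3 in brm-3 and 1494, 901.7 and 1076 in the triple mutant, with no overlap.

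In bcl7a bcl7b brm-1 minus brm-1, the calls were more even, with 20 members higher (11.9%, against 14.2% of all genes) and 14 lower (8.33 against 15.3%) and a median of 0.03. XTH18 rose from 146.6, 127.0 and 168 to 1516, 1544 and 1031 (3.19, SE 0.434, adjusted p = 7.12e-06). AT1G19380 (2.38, SE 0.407, adjusted p = 0.000101), AT3G16330 (2.26, SE 0.387, adjusted p = 0.0001) and AT4G23420 (2.11, SE 0.704, adjusted p = 0.0252) followed. The largest falls were those of AT1G09470 (-2.56, SE 0.625, adjusted p = 0.00301), DFD (-2.51, SE 0.285, adjusted p = 7.62e-07), AT4G08555 (-2.22, SE 0.646, adjusted p = 0.011) and SUV2 (-1.62, SE 0.581, adjusted p = 0.037). HSP81-3 rose from 1735 to 2136 in brm-1 to 5072 to 6686 in the triple mutant (1.66, SE 0.181, adjusted p = 4.8e-07). Both AT4G23420 and SUV2 lost their calls without any 1 of the 3 brm-1 libraries or of replicates 1 and 3 of the triple mutant, with adjusted p of 0.0502 to 0.0809 and 0.0575 to 0.156.

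**Figure D4:**
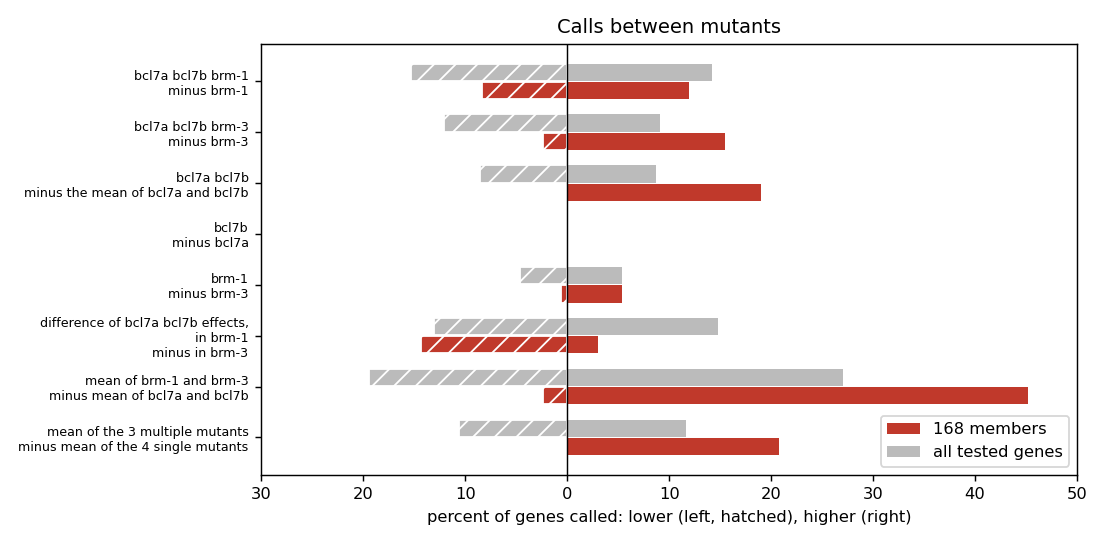
Bars give the percentage of 168 members (red) and of all 21596 tested genes (grey) called higher (right) or lower (left, hatched) in each comparison between mutants, named on the y axis. On the higher side the bars of members and all genes are at 45.2 and 27% for brm against BCL7 singles, 19 and 8.67% for bcl7a bcl7b against its singles and 11.9 and 14.2% for bcl7a bcl7b brm-1 against brm-1, and the rule left members less room on the lower side.

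The effect of the BCL7 mutations was also compared directly between the brm backgrounds. The difference, in brm-1 minus in brm-3, was negative in 24 members (14.3%, against 13.1% of all genes) and positive in 5 (2.98 against 14.8%), with a median of -0.16. AT4G08555 rose with the BCL7 mutations in brm-3 and fell in brm-1, as its levels were 3.63 to 5.29 in brm-3, 79.7 to 146.9 in bcl7a bcl7b brm-3, 207.7 to 390.7 in brm-1 and 56.6 to 85.4 in bcl7a bcl7b brm-1. The difference of effects was -6.60 (SE 0.913, adjusted p = 1.53e-05). For NRP2 it was -2.2 (SE 0.267, adjusted p = 3.6e-06), with effects of 0.80 in brm-3 and -1.40 in brm-1. Both genes were thus called with opposite signs in the 2 backgrounds.

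**Figure D5:**
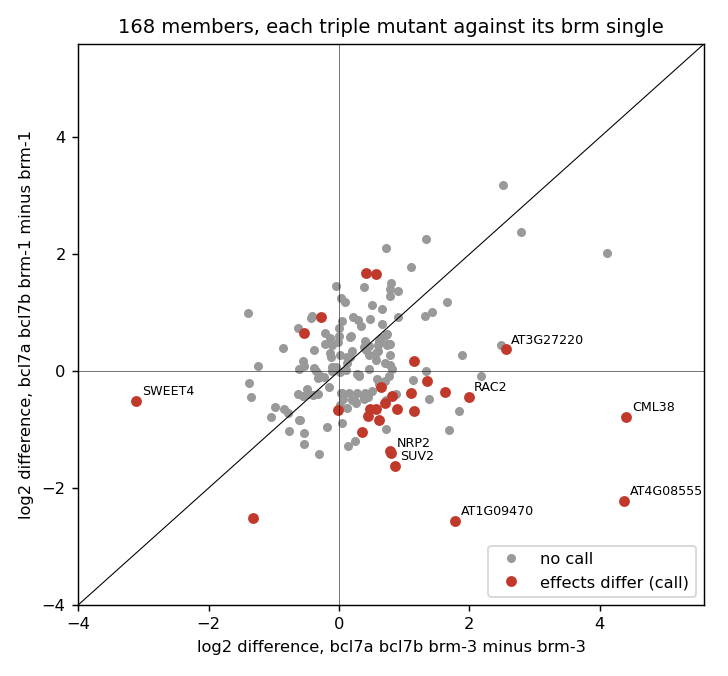
Each of 168 members is placed by its log2 difference between bcl7a bcl7b brm-3 and brm-3 (x axis) and between bcl7a bcl7b brm-1 and brm-1 (y axis), with the line of equal effects in black. The 29 members in red had effects that differed between the backgrounds, 24 of them below the line.

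The brm alleles were compared with each other, where the number of calls depended on the model, as given below. In brm-1 minus brm-3, 9 members were higher (5.36%, near the 5.34% of all genes) and 1 lower (0.595 against 4.6%), with a median of 0.06. Nothing particular to the members is read from these shares. The largest were AT4G08555 (5.78, SE 0.646, adjusted p = 2.73e-06), CML38 (3.23, SE 0.745, adjusted p = 0.00619), AT3G27220, a kelch repeat protein (1.88, SE 0.287, adjusted p = 0.000144) and AT5G16980, a zinc-binding dehydrogenase (1.85, SE 0.587, adjusted p = 0.0454), and BBX15 was the only lower one (-0.76, SE 0.177, adjusted p = 0.00696). The count of 10 dropped to 5 without brm-1 replicate 1, to 6 without brm-1 replicate 2 and to 6 without brm-3 replicate 2. The call of AT5G16980 was lost without any 1 of brm-1 replicates 1, 2 and 3 or brm-3 replicates 2 and 3 (adjusted p = 0.0848 to 0.231), and that of BBX15 without brm-3 replicate 1 (-0.58, adjusted p = 0.0605).

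A minority of members changed little from mutant to mutant. The ratio of the highest to the lowest genotype mean had a median of 3.06, and it was below 2 in 28 members and above 10 in 16. BON2, a copine linked to defence, was the most even, with genotype means from 486 to 568 in the mutants (ratio 1.17) against 340.2, 384.3 and 404.1 in WT. NAGS1, an enzyme of arginine synthesis, had means of 102 to 163 (ratio 1.59) against 47.6, 76.9 and 62.1. In both, the libraries of single and multiple mutants overlapped, and the lowest mutant library was at most 1.01 times the highest of WT.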

How the data were processed

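RNA-seq libraries of 24 seedling samples were quantified by the authors with Salmon 1.5.1 against the AtRTD2 transcriptome and normalized with DESeq2 (version 3.10 per the labels) by size factors, and the deposited table holds these normalized counts, treated here as a signal without known depth, since values were not whole multiples of a common step. The study's methods call the input TPM. The precision therefore rests on the spread between libraries. The study's methods call the replicates biological, while no label says that they came from separate cultures. The labels name TAIR10, and names, products, neighbours and overlaps were read from RefSeq's annotation of TAIR10.1, which held all 168 members, without printing coordinates or sequences. AT5G36790 was set aside by the rule for membership.

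Values were compared as log2(value + 1) with the lmFit and trended eBayes functions of limma 3.58.1 (R 4.3.3), over 21596 genes with 10 or more in at least 3 libraries, in 1 model of 8 genotypes without covariates and with replicates 1 and 3 of bcl7a bcl7b averaged (23 samples). A call needed a log2 difference beyond 0.6 and p under 0.05 after Benjamini-Hochberg adjustment over all genes. The fit was checked on simulated data. Named are BRM, BCL7A and BCL7B, the 12 members with the highest ratio, the 6 highest of those at 0 in WT, the 8 most abundant, the 4 largest rises and falls in each multiple mutant against its own singles and in brm-1 against brm-3, the 3 genes on each side of the threshold, and examples of classes and lists. Further members were named after their values were seen. The members and lists were chosen with earlier results of these data known. Alternatives covered scaling, pseudocount, filter, model and leaving out libraries, and the comparison of the BCL7 effect between brm-1 and brm-3, the subset with ratios of 1.5 or more and leaving out genotypes were added after seeing the data.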

Additional observations from a re-analysis of the deposited data

Results flagged for a closer look

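Effects of the BCL7 mutations that differed between the brm-1 and brm-3 backgrounds, by an interaction term in the limma model chosen after seeing the data, were found for 24 members with a more negative effect in brm-1 (14.3%, against 13.1% of all tested genes) and 5 with a more positive one (2.98 against 14.8%). Among the 24 were AT4G08555, CML38 (-5.19, adjusted p = 0.000741), AT1G09470 (-4.34, adjusted p = 0.00076) and NRP2, and the 5 were SWEET4 (2.59, adjusted p = 0.0494), GTR2 (1.27), PME31 (1.21), SBE2.1 (1.2) and HSP81-3 (1.08). All members had to stay above WT in both backgrounds, so nothing is read from these shares, and the cause of the difference was not tested.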

How the results depend on the processing

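Rescaling every library to the same total changed most: it moved the median of all genes by 0.79 for bcl7a bcl7b against its singles (96.4% of all calls higher, against 50.3%), by 0.68 for brm against BCL7 singles (87.9 against 58.2%), by 0.44 for multiple against single mutants (89.6 against 52.5%) and by 0.11 for bcl7a bcl7b brm-3 against brm-3 (53.9 against 42.8%). It gave 113, 141 and 117 called members in the first 3 of these (67.3, 83.9 and 69.6%, against 42.6, 57.2 and 38.5% of all genes), 569 genes by the rule for membership (165 of the 168 among them), and medians against WT of 2.90 in brm-3, 2.94 in brm-1, 2.81 in bcl7a bcl7b, 3.38 in bcl7a bcl7b brm-3 and 3 in bcl7a bcl7b brm-1. Rescaling without the 100 highest genes gave 311 genes by the rule (167 shared), quantile normalization 146 (115 shared), and a ratio of at least 1.5 gave 38. Leaving out bcl7a or bcl7b gave 396 or 360. The members' median in bcl7a bcl7b brm-3 was 2.01 among genes with a mean of 50 or more. A model of the compared genotypes alone called 53 members (31.5%, against 39.2% of all genes) for bcl7a bcl7b brm-1 against brm-1, 26 (15.5 against 16.6%) for brm-1 against brm-3 and 45 (26.8 against 36.3%) for the difference between backgrounds. Restricted to a ratio of 1.5 or more or WT at 0, 4 of 38 members were called higher for bcl7a bcl7b against its singles, beside 8.67% of all tested genes.

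With 1 library left out, the number of genes by the rule ranged from 168 to 613, and the median in bcl7a bcl7b brm-3 from 2.03 to 2.42. The members called ranged from 5 to 8 for brm-1 against brm-3 and from 0 to 1 for bcl7b against bcl7a. Calls over all genes were not counted with a library left out, so nothing particular to the members is read from these counts. The other counts and medians stayed within 1.5 times or 1 SD of their values. No result reversed. Of 25 results of named genes in single comparisons, 19 passed the thresholds in every setting, and AT5G16980, SUV2, AT4G23420, BBX15, COL9 and CML38 failed in at least 1, the last 2 with a pseudocount of 0.1 only.

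Replicate numbers did not pair the libraries, as the correlation of deviations over 84 same-numbered pairs was -0.0723 to 0.115. With the replicate block and 24 libraries as deposited, replicates 1 and 3 of bcl7a bcl7b counted separately. Of 168 members, 46 were then called for bcl7a bcl7b against its singles, beside 23.7% of all genes. Against their brm singles, 32 were called for bcl7a bcl7b brm-3 (22.4% of all genes) and 33 for bcl7a bcl7b brm-1 (30.7% of all genes). For brm-1 against brm-3, 12 were called (10.8% of all genes), and between the BCL7 singles 0 (0.0463%). For brm against BCL7 singles 80 were called (47% of all genes). Multiple against single mutants gave 38 (23.8% of all genes) and the difference between backgrounds 30 (29.4%). The causes of these changes were not tested. Low members with WT libraries at 0 carry the largest errors.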
